A study of Mus musculus with 4 samples.

Results

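The subject is the difference that the label BuOE makes among irradiated samples: 1 library of prostate cells labelled BuOE and radiation over 1 library labelled PBS and radiation, across the genes expressed in the series. PBS is phosphate-buffered saline, the vehicle. A gene was a member when its mean over all 4 libraries reached 1 CPM (counts per M reads of a library, scaled between libraries with TMM factors), and 14365 of 56748 gene IDs did. Just inside that limit lay D530018E20Rik with a mean of 1.00006 CPM, and just outside it 9330162G02Rik with 0.999483 CPM. The irradiated mice had been given 37.5 Gy to the pelvis, with shielding, at 1.2 Gy per minute, as daily fractions of 7.5 Gy over 5 days. The other 2 libraries, labelled BuOE and PBS, came from mice without radiation, and their values stand beside the ratios as a second, separate pair. What all 4 share is the animal (male C57BL/6 mice of 8 to 10 weeks, a strain that the genotype field spells CB57BL/6) and the path from organ to RNA: collagenase digestion of the minced prostate, culture in serum-containing DMEM, and a cell type field that reads fibroblasts. BuOE forms part of the chemical name of the manganese porphyrin BMX-001, the compound of the series title. Its dose, its timing, whether mice or dishes received it, and how many mice stand behind a library are not in the labels.

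Radiation fibrosis is the replacement of working tissue by a stiff matrix rich in collagen. Fibroblasts lay this matrix down, and under TGF-beta they can turn into contractile myofibroblasts. Manganese porphyrins of this kind mimic superoxide dismutase, the enzyme that turns superoxide into hydrogen peroxide, and they also react with other oxidants and with protein thiols. Radiation breaks DNA, and the transcription factor p53 answers with genes that halt the cell cycle, repair DNA or start cell death.

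The irradiated BuOE library held 25.0 M counted reads and the irradiated PBS library 35.9 M, with 28.9 M in BuOE and 29.7 M in PBS. A count of 3 equalled 0.123 CPM in irradiated BuOE and 0.0842 CPM in irradiated PBS. With 1 library on each side there was no replicate error and no test. Differences are therefore described by the log2 ratio of the TMM-scaled CPM (prior count 2), irradiated BuOE over irradiated PBS, and a gene is counted as higher or lower when the ratio reached 2-fold. The range printed after a ratio is a 95% interval, from the exact binomial limits on the 2 read counts. It covers counting error only, so it does not show how far 2 cultures of the same kind would differ.

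In irradiated BuOE 548 genes (3.81% of those measured) were higher by 2-fold or more, and 851 genes (5.92%) were lower by as much. Among the 9870 genes with 10 CPM or more on average, 245 (2.48%) were higher and 347 (3.52%) lower. At 4-fold the counts were 65 higher and 134 lower, and at 8-fold 9 and 26. The median ratio over all genes was -0.07, with 43.8% of genes above 0 and 56.2% below. Upper-quartile scaling moved that median to 0.06, a shift of more than 0.1, and turned the split to 767 genes higher and 670 lower, so that 53.4% of the 2-fold genes were higher in place of 39.2%. Small list medians near 0 should be read against that shift. The genes with the most reads in the irradiated BuOE library were mt-Co1 (a mitochondrially encoded subunit of cytochrome oxidase), the nuclear noncoding RNA Malat1, the translation factor gene Eef1a1, the actin gene Actb and the matricellular gene Thbs1.

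**Figure D1:**
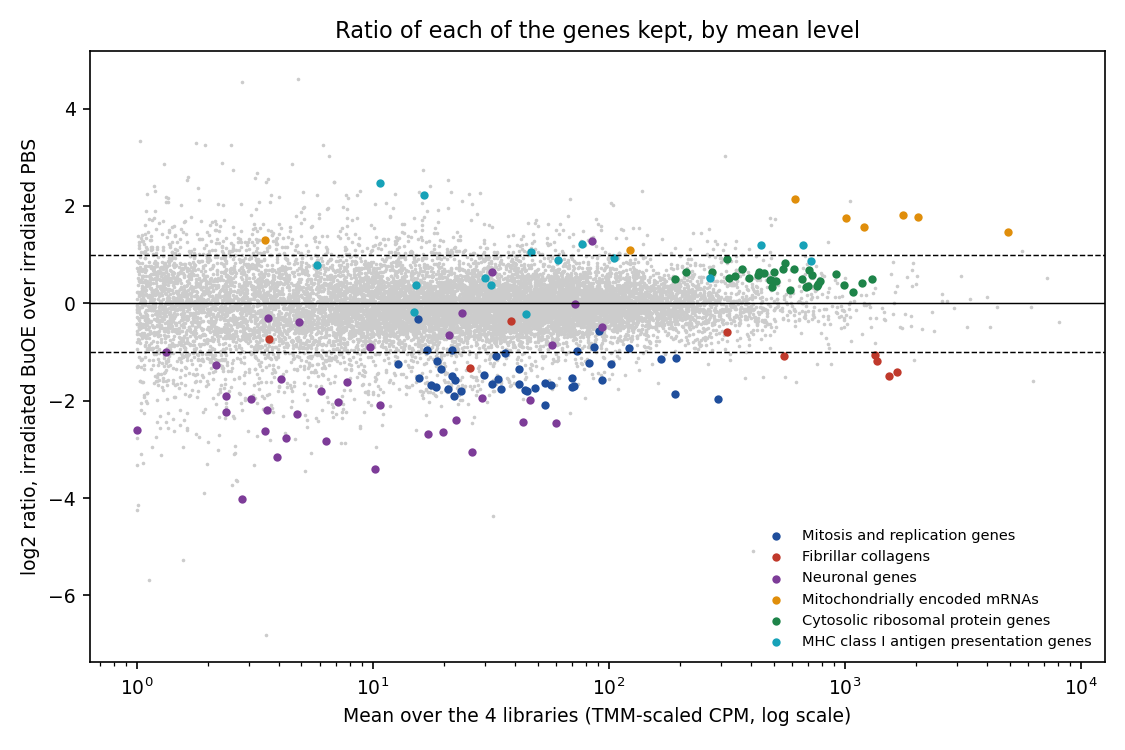
Log2 ratio of irradiated BuOE over irradiated PBS (vertical axis) against the mean over the 4 libraries in TMM-scaled CPM (horizontal axis, log scale), 1 point for each of the 14365 genes, with members of 6 gene lists in colour and dashed lines at 2-fold. Mitosis and replication genes, fibrillar collagens and most neuronal genes lie below 0, and the mitochondrially encoded mRNAs lie above the upper dashed line.

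Before the gene groups, the label fibroblasts was set against markers. All 18 fibroblast markers were measured. Their summed level was 6051 CPM in irradiated BuOE, 9757 in irradiated PBS, 6798 in BuOE and 6717 in PBS. Collagen genes of the list, 3 in number, took much of it. Dcn, which encodes the collagen-binding proteoglycan decorin, stood at 1324 CPM in the irradiated BuOE library, 994 CPM in irradiated PBS, 882 CPM in BuOE and 511 CPM in PBS, and Pdgfra, a growth factor receptor gene of fibroblasts, at 1048 CPM in the irradiated BuOE library, 893 CPM in irradiated PBS, 709 CPM in BuOE and 766 CPM in PBS. Both genes were expressed in every library. They were picked with their values known and lay above 0 between the irradiated libraries, whereas the list went mostly the other way, with 12 of 18 below 0, 5 at least 2-fold lower, none higher and a median of -0.33. The sum of the luminal and general epithelial markers was 6663 CPM in irradiated BuOE, 4233 in irradiated PBS, 5807 in BuOE and 4681 in PBS. For basal epithelial markers the sum was 2326 CPM in irradiated BuOE, 1151 in irradiated PBS, 2927 in BuOE and 1608 in PBS. Endothelial, macrophage, glial and neuronal markers were present as well. Of 10 lymphocyte markers none was measured at 1 CPM or more on average. The libraries thus held transcripts typical of several cell types. In such bulk RNA, fewer cells of a type and less RNA per cell cannot be told apart.

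**Figure D2:**
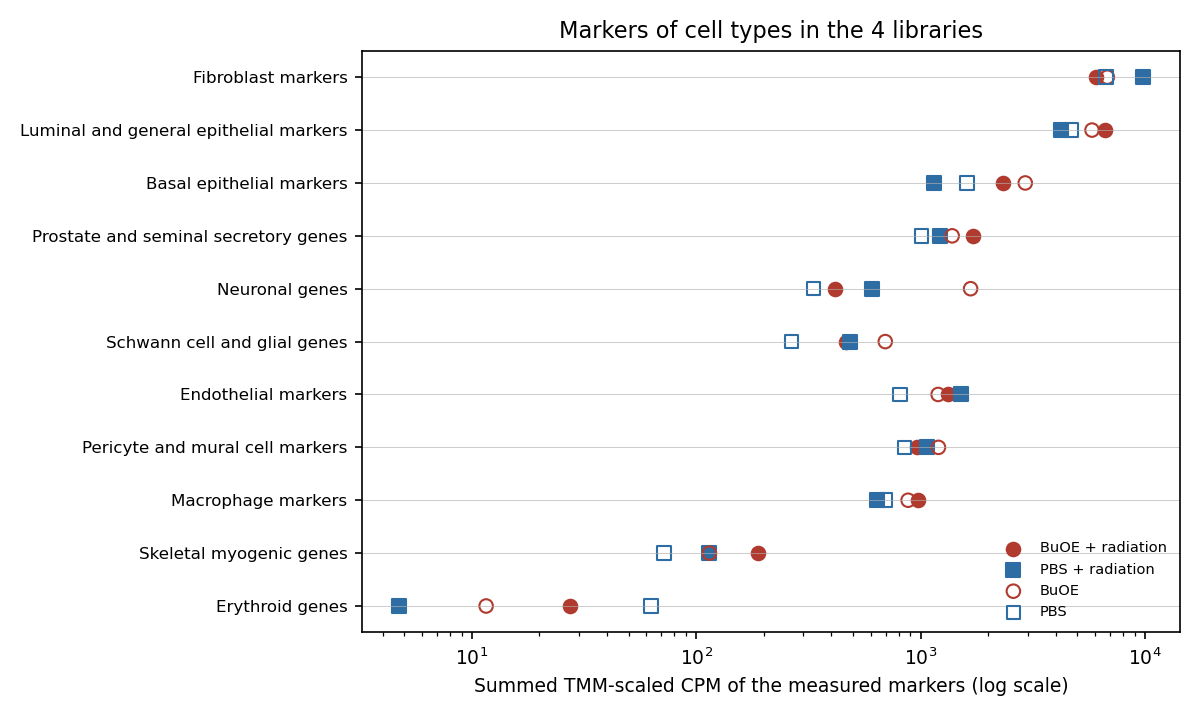
Summed level of the measured markers of each cell type in the 4 libraries, in TMM-scaled CPM on a log axis; filled symbols are the irradiated libraries, circles BuOE and squares PBS. Epithelial sums are higher in both BuOE libraries than in both PBS libraries, while the neuronal sum is lowest in PBS and highest in unirradiated BuOE.

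Fibrillar collagens, the rope-like proteins that give scar tissue its strength, were lower in the irradiated BuOE library. Of 10 genes, 9 were measured; 6 were at least 2-fold lower and all 9 had a ratio below 0, with a median of -1.09. Col1a1, which encodes the main chain of type I collagen, had 795 CPM in the irradiated BuOE library, 2249 CPM in irradiated PBS, 1443 CPM in BuOE and 1652 CPM in PBS (-1.500, -1.52 to -1.48), which made it 2.83-fold lower in irradiated BuOE. Its partner chain Col1a2 had 840.2 CPM in the irradiated BuOE library, 1899 CPM in irradiated PBS, 1173 CPM in BuOE and 1593 CPM in PBS (-1.18, -1.20 to -1.15). Col3a1, the type III collagen of pliable and healing tissue, had 1012 CPM in the irradiated BuOE library, 2687 CPM in irradiated PBS, 1725 CPM in BuOE and 1264 CPM in PBS (-1.41, -1.43 to -1.39). For all 3 genes the irradiated BuOE library was the lowest of the 4 and the irradiated PBS library the highest. Among the minor fibrillar genes, which help to set fibril diameter, the ratio was -1.33 for Col11a1, -1.09 for Col5a1, -1.07 for Col5a2, -0.72 for Col24a1, -0.59 for Col5a3 and -0.37 for Col27a1. Without radiation the same 9 genes had a median ratio of -0.20 (BuOE over PBS), with none at 2-fold, 4 above 0 and 5 below. Among all genes of that pair 8.72% were 2-fold higher and 4.23% lower, with 48.8% above 0 and 51.2% below. Of the 18 fibroblast markers 5 were at least 2-fold lower, namely these 3 collagens, the protease gene Fap (3.50 against 9.99 CPM) and the surface marker Thy1 (20.0 against 40.5 CPM), irradiated BuOE first, while 6 lay above 0. The part of cell makeup in the collagen ratios was not tested. The summed fibrillar collagen level was 4137 CPM in irradiated BuOE against 9834 CPM in irradiated PBS, and 6536 CPM in BuOE against 6987 CPM in PBS.

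The other collagens moved less uniformly. Of 21 measured, 3 were at least 2-fold lower and none higher, and the median was -0.17. Col6a3, a chain of the beaded filaments around cells, had 390.4 CPM in irradiated BuOE and 922 CPM in irradiated PBS (-1.24, -1.27 to -1.21). Col8a1, a network-forming collagen of vessel walls, had 40.0 CPM in irradiated BuOE and 93.6 CPM in irradiated PBS (-1.22, -1.33 to -1.12). Col10a1 had 0.617 CPM in irradiated BuOE and 2.05 CPM in irradiated PBS, close to the limit of 1 CPM. The basement membrane chains Col4a1 (-0.33) and Col4a2 (-0.42) were nearer to 0. Col17a1, a collagen of the epithelial hemidesmosome, and Col18a1, the source of endostatin, lay on the other side, at 0.72 and 0.48. In the pair without radiation this list was mostly higher in BuOE, with 18 of 21 genes above 0 and a median of 0.76.

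Genes that process and cross-link collagen had a ratio below 0 in 19 of 23 cases, with a median of -0.49, and 4 of them passed 2-fold. The lowest was Pcolce, whose product speeds the removal of the procollagen tail, with 59.1 CPM in the irradiated BuOE library, 163 CPM in irradiated PBS, 78.2 CPM in BuOE and 168 CPM in PBS (-1.46, -1.55 to -1.38). Its level was low in both BuOE libraries. P4ha3, a prolyl hydroxylase gene, had a ratio of -1.38. The lysyl oxidase gene Lox, whose product starts covalent cross-links, had 866 CPM in irradiated BuOE and 1336 CPM in irradiated PBS (-0.62, -0.65 to -0.60). The collagen chaperone gene Serpinh1 had 509.5 CPM in irradiated BuOE and 777 CPM in irradiated PBS (-0.61, -0.64 to -0.58), and both ratios were short of 2-fold. Against this direction, Tgm2, a transglutaminase gene, had 322 CPM in irradiated BuOE and 171 CPM in irradiated PBS (0.92, 0.87 to 0.97). The prolyl hydroxylase gene P4ha1 had 513 CPM in irradiated BuOE and 372 CPM in irradiated PBS (0.46, 0.43 to 0.50).

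Elastic fibre genes followed the collagens, with 3 of 15 at least 2-fold lower and a median of -0.58. Fbn1, the fibrillin of the microfibril scaffold, had 527 CPM in the irradiated BuOE library, 1257 CPM in irradiated PBS, 619 CPM in BuOE and 1113 CPM in PBS (-1.26, -1.28 to -1.23). Eln, which encodes elastin, had 11.2 CPM in the irradiated BuOE library, 27.9 CPM in irradiated PBS, 16.2 CPM in BuOE and 1.87 CPM in PBS (-1.31, -1.51 to -1.12). Fbn1 was lower in BuOE in both pairs, but Eln was lower in BuOE only among the irradiated libraries. Of 25 measured genes for fibronectin, matricellular proteins and proteoglycans, 6 were at least 2-fold lower and 1 higher, with a median of -0.48. Fn1, which encodes fibronectin, had 3997 CPM in the irradiated BuOE library, 5576 CPM in irradiated PBS, 3747 CPM in BuOE and 3182 CPM in PBS (-0.48, -0.49 to -0.47). Thbs1, a thrombospondin that can activate latent TGF-beta, had a ratio of -0.08 that turned positive with upper-quartile scaling (0.06). The lowest ratios were those of Aspn, a small proteoglycan gene, with 0.453 CPM in irradiated BuOE and 3.28 CPM in irradiated PBS (-2.69, -3.90 to -1.97), and Thbs4, another thrombospondin gene, with 3.70 CPM in irradiated BuOE and 22.1 CPM in irradiated PBS (-2.56, -2.91 to -2.26). Spp1, which encodes the adhesive phosphoprotein osteopontin, had 1356 CPM in irradiated BuOE and 3026 CPM in irradiated PBS (-1.16, -1.18 to -1.14). The gene at 2-fold higher was Prelp, a proteoglycan that anchors basement membranes, with 39.5 CPM in irradiated BuOE and 15.2 CPM in irradiated PBS (1.38, 1.23 to 1.54).

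Basement membrane glycoproteins differed from the interstitial matrix. Of 16 genes, 3 passed 2-fold higher and none passed 2-fold lower, with a median of 0.07. The higher ones were laminin genes: Lama5 had 523 CPM in the irradiated BuOE library, 225 CPM in irradiated PBS, 360.0 CPM in BuOE and 133 CPM in PBS (1.22, 1.18 to 1.26). Lamb3, a chain of the epithelial laminin-332, had 313 CPM in the irradiated BuOE library, 144 CPM in irradiated PBS, 284 CPM in BuOE and 146 CPM in PBS (1.12, 1.07 to 1.17). Both were higher in BuOE in each pair. So was the summed level of basal epithelial markers, a list that counts Lamb3 among its members. Npnt, the ligand of an integrin at the basement membrane, had the lowest ratio (-0.87). Matrix proteases had 2 of 26 genes at least 2-fold lower and a median of -0.33. Mmp3, the stromelysin gene, had 1345 CPM in irradiated BuOE and 1188 CPM in irradiated PBS (0.18, 0.16 to 0.20). Adamts12, the lowest, had 32.7 CPM in irradiated BuOE and 71.7 CPM in irradiated PBS (-1.13, -1.25 to -1.02).

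Contractile genes split in opposite directions. Acta2, the smooth muscle actin that marks myofibroblasts, had 298 CPM in the irradiated BuOE library, 845 CPM in irradiated PBS, 308 CPM in BuOE and 782 CPM in PBS (-1.505, -1.54 to -1.47). Actg2, an actin of visceral muscle, had 22.1 CPM in the irradiated BuOE library, 68.4 CPM in irradiated PBS, 15.8 CPM in BuOE and 44.4 CPM in PBS (-1.63, -1.77 to -1.49). Both actins were low in the BuOE libraries and high in the PBS libraries, with or without radiation. Myh11, a myosin of mature smooth muscle, had 116 CPM in the irradiated BuOE library, 43.4 CPM in irradiated PBS, 99.4 CPM in BuOE and 24.4 CPM in PBS (1.41, 1.33 to 1.51). The intermediate filament gene Des had 145 CPM in the irradiated BuOE library, 58.9 CPM in irradiated PBS, 85.6 CPM in BuOE and 38.2 CPM in PBS (1.30, 1.22 to 1.38), and these 2 genes were high in the BuOE libraries. In all, 3 of 19 were at least 2-fold higher and 3 lower, with a median of -0.30, and the same 3 up and 3 down passed 2-fold in the pair without radiation.

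TGF-beta response genes had 1 of 16 at least 2-fold lower and none higher, with a median of -0.19. Nox4, which encodes an oxidase that makes hydrogen peroxide, was the one, with 3.70 CPM in the irradiated BuOE library, 7.89 CPM in irradiated PBS, 4.49 CPM in BuOE and 5.62 CPM in PBS (-1.08, -1.45 to -0.74). Tgfbi, a matrix protein induced by TGF-beta, had a ratio of -0.94. Ccn2, the connective tissue growth factor gene, had 954 CPM in irradiated BuOE and 1037 CPM in irradiated PBS (-0.12, -0.14 to -0.10); with upper-quartile scaling the ratio was 0.02, on the other side of 0. The highest were Tgif1, a repressor of SMAD targets (0.97), and Bhlhe40 (0.96), which is also a clock gene. Of the ligands and receptors, Tgfbr1, the type I receptor, had 67.9 CPM in irradiated BuOE and 138 CPM in irradiated PBS (-1.02, -1.10 to -0.94). Tgfb3 had 52.1 CPM in irradiated BuOE and 97.7 CPM in irradiated PBS (-0.91). Gdf15, a distant member of the family, was the one gene of that list at 2-fold higher (2.75), and Tgfbr1 the one at 2-fold lower, with 5 of 16 above 0 and a median of -0.27.

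**Figure D3:**
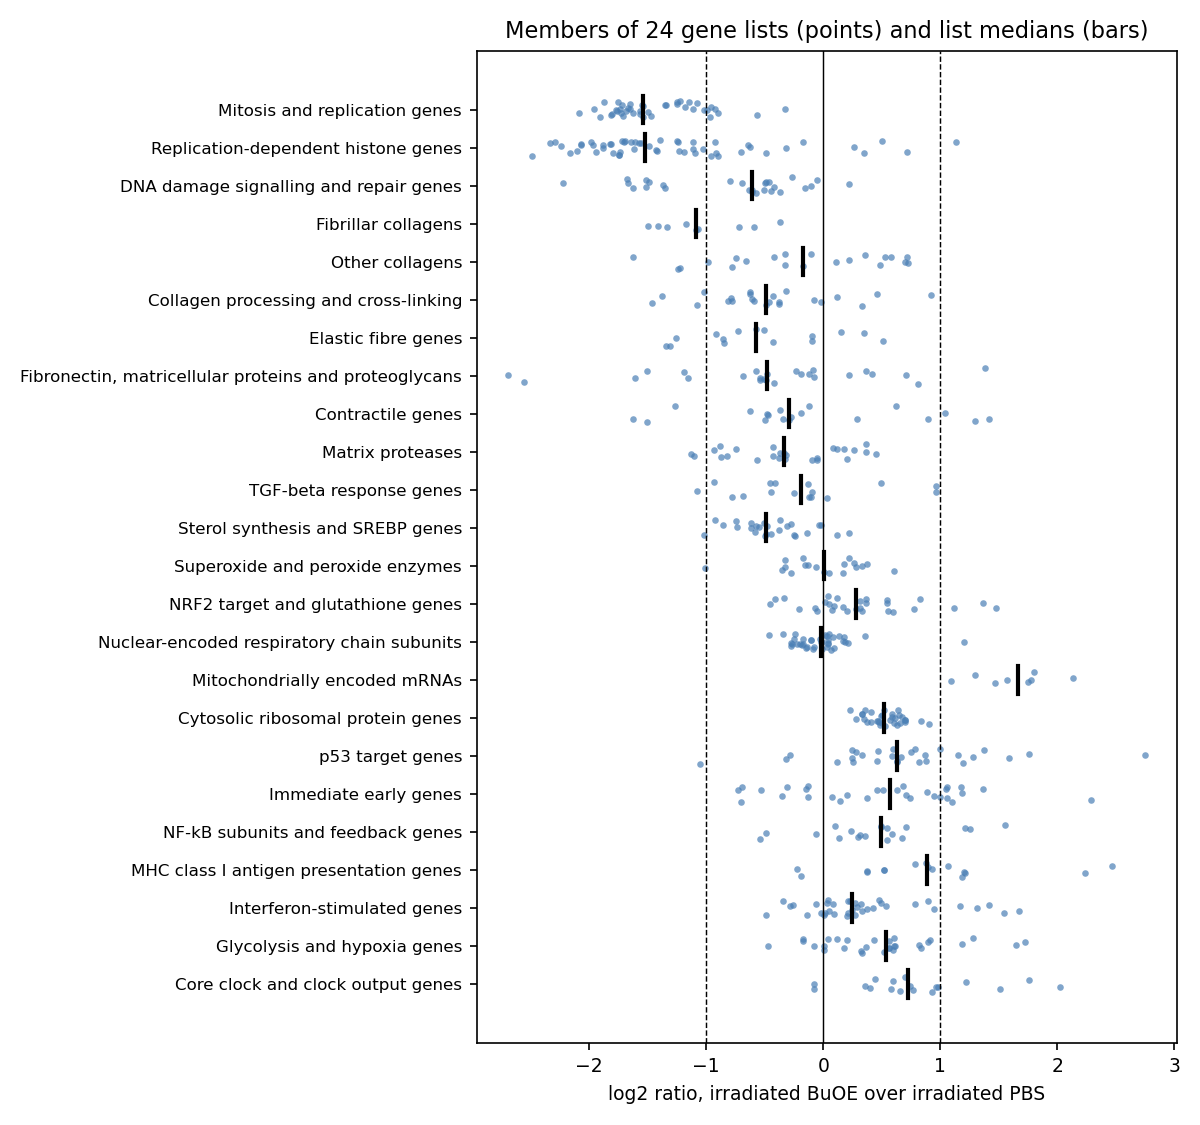
Log2 ratio of irradiated BuOE over irradiated PBS for the measured members of 24 gene lists (points), with the median of each list (black bar) and dashed lines at 2-fold. The cell division and fibrillar collagen lists lie to the left of 0, as do 49 of 54 histone genes, the ribosomal protein list lies wholly between 0 and 2-fold higher, and all 8 mitochondrially encoded mRNAs lie beyond 2-fold higher.

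Cell division genes were lower in irradiated BuOE throughout. All 42 mitosis and replication genes were measured and had a ratio below 0, and 35 of them were at least 2-fold lower, with a median of -1.54. Mki67, the antigen of cycling cells, had 112 CPM in the irradiated BuOE library, 438 CPM in irradiated PBS, 169 CPM in BuOE and 446 CPM in PBS (-1.96, -2.02 to -1.90). Top2a, the topoisomerase that untangles chromosomes, had 75.4 CPM in the irradiated BuOE library, 276 CPM in irradiated PBS, 114 CPM in BuOE and 299 CPM in PBS (-1.87, -1.95 to -1.80). Ccna2, the cyclin of S phase and G2 and the lowest of the list, had 18.1 CPM in the irradiated BuOE library, 77.2 CPM in irradiated PBS, 31 CPM in BuOE and 87.9 CPM in PBS (-2.09, -2.24 to -1.95). In each case the 2 BuOE libraries were low and the 2 PBS libraries high, and the irradiated BuOE library was the lowest. The smallest differences were those of replication clamp and clamp-loader genes, Pcna (-0.57) and Rfc3 (-0.33). Without radiation the median was -1.37, again with all 42 below 0, and 35 genes passed 2-fold lower in both pairs. Replication-dependent histone genes, a list added after the values were seen, went the same way, with 39 of 54 measured (70 listed) at least 2-fold lower, 1 higher (Hist1h1c, 1.14), 5 above 0 and a median of -1.52. Their members are near copies of each other, so single values are uncertain. Hist1h3g had 2.55 against 14.7 CPM and Hist1h2bk 5.06 against 25 CPM, irradiated BuOE first. The summed level of the measured histone genes was 1679 CPM in irradiated BuOE against 2398 CPM in irradiated PBS, a smaller difference than the median ratio. Without radiation it was 1401 CPM in BuOE against 2731 CPM in PBS.

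Promoters of such genes often carry the cell cycle homology region, TTTGAA or TTCGAA, near a CCAAT box, and the pair is known as a target of the DREAM repressor complex in resting cells. Letters were searched on both strands from 250 bases before to 29 after each RefSeq start (build GRCm38.p6), and the motifs do not overlap. Of 37 promoters found for 35 of the 42 genes, 17 held the first motif (45.9%), 29 held CCAAT (78.4%) and 16 held both (43.2%). Over the 13758 promoters of measured genes the shares were 13.1%, 36.3% and 5.12%, and over all 32851 promoters 18.4%, 36.02% and 6.90%. A match of letters is a description and not evidence of binding. The promoters of Ccnb2 and Cdk1, the cyclin and the kinase that drive entry into mitosis, show the pair, and that of the mitotic kinase gene Plk1 shows CCAAT without the other motif; all 3 were chosen after their values were seen. Capitals mark both motifs on either strand, CCAAT reading ATTGG on the other strand. The windows are chr9:70421526-70421804 (minus strand), chr10:69352884-69353162 (minus strand) and chr7:122159185-122159463 (plus strand).
Ccnb2: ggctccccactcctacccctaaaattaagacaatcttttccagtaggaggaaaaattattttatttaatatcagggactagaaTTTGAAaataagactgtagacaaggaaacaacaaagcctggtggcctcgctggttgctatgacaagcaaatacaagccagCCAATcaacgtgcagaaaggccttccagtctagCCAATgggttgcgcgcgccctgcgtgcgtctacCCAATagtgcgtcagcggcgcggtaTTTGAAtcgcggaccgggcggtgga
Cdk1: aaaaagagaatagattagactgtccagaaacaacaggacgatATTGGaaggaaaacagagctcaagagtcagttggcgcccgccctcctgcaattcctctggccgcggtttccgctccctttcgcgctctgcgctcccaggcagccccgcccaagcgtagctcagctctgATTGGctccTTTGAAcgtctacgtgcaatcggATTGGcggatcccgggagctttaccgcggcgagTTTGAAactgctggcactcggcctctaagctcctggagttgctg
Plk1: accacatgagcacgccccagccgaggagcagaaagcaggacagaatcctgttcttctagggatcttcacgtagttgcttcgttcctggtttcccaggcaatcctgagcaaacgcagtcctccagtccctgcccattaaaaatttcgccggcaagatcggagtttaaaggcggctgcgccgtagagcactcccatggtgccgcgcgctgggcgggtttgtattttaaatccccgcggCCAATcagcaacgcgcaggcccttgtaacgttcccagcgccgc
All 3 genes were low in both BuOE libraries and high in both PBS libraries. Ccnb2 had 8.27 CPM in the irradiated BuOE library, 28.1 CPM in irradiated PBS, 13.1 CPM in BuOE and 34 CPM in PBS (-1.76, -1.99 to -1.54). Cdk1 had 24.3 CPM in the irradiated BuOE library, 78.2 CPM in irradiated PBS, 32.8 CPM in BuOE and 92.7 CPM in PBS (-1.68, -1.82 to -1.56). Plk1 had 19.2 CPM in the irradiated BuOE library, 64.1 CPM in irradiated PBS, 25.8 CPM in BuOE and 85.8 CPM in PBS (-1.74, -1.89 to -1.60).

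Genes of DNA damage signalling and repair were lower as well. Of 27 genes, 9 were at least 2-fold lower, none higher and 26 below 0, with a median of -0.60. The lowest was Rad51ap1, which acts in repair by homologous recombination, with 2.35 CPM in irradiated BuOE and 11.2 CPM in irradiated PBS (-2.22, -2.68 to -1.85). Parp1, the sensor of strand breaks, had 73.7 CPM in irradiated BuOE and 104 CPM in irradiated PBS (-0.49, -0.57 to -0.41). The mismatch repair gene Msh6 had a ratio of -0.11, which turned to 0.03 with upper-quartile scaling, and Ung, which removes uracil from DNA, had the only ratio above 0 (0.22). In the pair without radiation 9 genes of the list were also 2-fold lower, 8 of them the same.

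p53 target genes lay on the other side. Of 29 measured (30 listed), 7 were at least 2-fold higher and 1 lower, 26 were above 0, and the median was 0.63. Cdkn1a, which encodes the cell cycle inhibitor p21, had 591 CPM in the irradiated BuOE library, 244 CPM in irradiated PBS, 354 CPM in BuOE and 201 CPM in PBS (1.28, 1.24 to 1.32). Gdf15, a stress cytokine gene, had 33.2 CPM in the irradiated BuOE library, 4.88 CPM in irradiated PBS, 17 CPM in BuOE and 10.4 CPM in PBS (2.75, 2.53 to 3.01), a 6.79-fold difference. Bbc3, which encodes the death-promoting protein PUMA, had 15.1 CPM in the irradiated BuOE library, 4.41 CPM in irradiated PBS, 8.94 CPM in BuOE and 5.86 CPM in PBS (1.76, 1.504 to 2.06). In all 3 the irradiated BuOE library was the highest of the 4. Pmaip1 (NOXA, also death-promoting) had a ratio of 1.37, Perp, a desmosome and death gene that is also a basal epithelial marker, 1.59, Trp53inp1 1.19 and Eda2r 1.15. The feedback gene Mdm2 had 195 CPM in the irradiated BuOE library, 129.9 CPM in irradiated PBS, 140.2 CPM in BuOE and 152 CPM in PBS (0.59, 0.53 to 0.64), short of 2-fold. The proapoptotic Bax had 46.3 CPM in irradiated BuOE and 36.7 CPM in irradiated PBS (0.34, 0.22 to 0.45), also short of 2-fold. Ckap2, a spindle gene, was the one at 2-fold lower (-1.05). Without radiation the median was 0.39, with 3 genes 2-fold higher, 22 of 29 above 0 and Mdm2 at -0.11. Among the cyclin-dependent kinase inhibitors, Cdkn1c had 7.78 against 3.45 CPM (1.16, 0.84 to 1.51) and Cdkn2a 0.823 against 1.91 CPM (-1.15, -2.01 to -0.48), irradiated BuOE first.

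**Figure D4:**
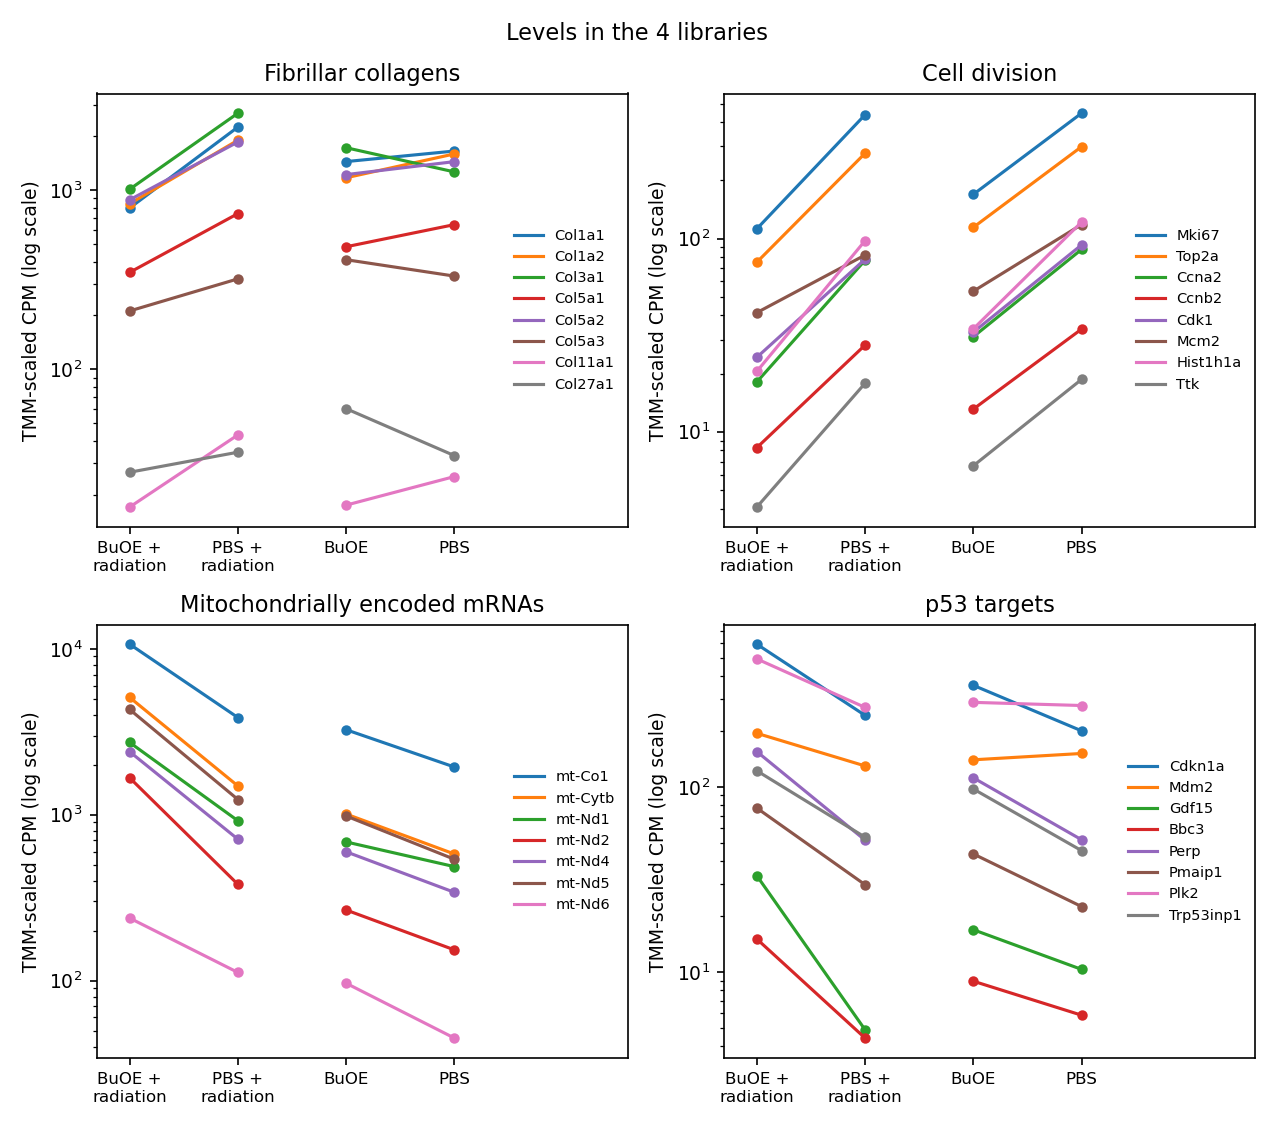
Level of 8 fibrillar collagen genes, 8 cell division genes, 7 mitochondrially encoded mRNAs and 8 p53 target genes in each of the 4 libraries (TMM-scaled CPM, log scale); 1 point is 1 library, and lines join BuOE and PBS of the same radiation status. The collagens differ between BuOE and PBS mainly among the irradiated libraries, while the cell division genes differ in both pairs.

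The enzymes that remove superoxide and peroxide, among them the superoxide dismutases that such compounds mimic, differed little. Of 19 genes, 1 was at least 2-fold lower and none higher, 10 were above 0, and the median of 0.01 turned to -0.02 when libraries were scaled by size alone. Sod1, the cytosolic superoxide dismutase, had 192 CPM in the irradiated BuOE library, 152 CPM in irradiated PBS, 149 CPM in BuOE and 159 CPM in PBS (0.33, 0.28 to 0.39). Sod2, the manganese enzyme of mitochondria, had 109 CPM in the irradiated BuOE library, 89.7 CPM in irradiated PBS, 105 CPM in BuOE and 85.9 CPM in PBS (0.28, 0.20 to 0.35). The catalase gene Cat had 134 CPM in the irradiated BuOE library, 115 CPM in irradiated PBS, 121 CPM in BuOE and 152 CPM in PBS (0.22, 0.15 to 0.28). None of these 3 genes reached 2-fold in either pair. Sod3, the extracellular enzyme, had 106 CPM in irradiated BuOE and 116 CPM in irradiated PBS (-0.13, -0.20 to -0.06), a difference that was 0.01 with upper-quartile scaling. The gene at 2-fold lower was Gpx7, a peroxidase of the endoplasmic reticulum, with 9.88 CPM in the irradiated BuOE library, 19.9 CPM in irradiated PBS, 13.5 CPM in BuOE and 24.7 CPM in PBS (-1.01, -1.23 to -0.80), and the highest was the glutaredoxin gene Glrx (0.60).

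Of 14 measured genes for enzymes that produce superoxide or nitric oxide (18 listed), 2 were at least 2-fold lower and none higher, with a median of 0.09. Besides Nox4, this was Nos1, the neuronal nitric oxide synthase, with 3.09 CPM in the irradiated BuOE library, 17 CPM in irradiated PBS, 150.3 CPM in BuOE and 3.58 CPM in PBS (-2.43, -2.83 to -2.11). Nos1 is also a member of the neuronal list described further on, so the direction it shares with that list is partly built in. Cybb, the catalytic subunit of the phagocyte oxidase, had 26.9 CPM in irradiated BuOE and 20.1 CPM in irradiated PBS (0.42, 0.26 to 0.57). Nos2, the inducible synthase, had 17.1 CPM in irradiated BuOE and 10.1 CPM in irradiated PBS (0.76, 0.55 to 0.97). Xdh, xanthine dehydrogenase, had 222 CPM in irradiated BuOE and 200.1 CPM in irradiated PBS (0.15, 0.10 to 0.20).

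NRF2 target and glutathione genes, the response to oxidants and electrophiles, tended upward. Of 29 genes, 3 passed 2-fold higher and none passed 2-fold lower, 23 were above 0, and the median was 0.28. The 3 were Ephx1, an epoxide hydrolase gene, with 134 CPM in the irradiated BuOE library, 48.2 CPM in irradiated PBS, 76.7 CPM in BuOE and 54.1 CPM in PBS (1.48, 1.39 to 1.56), Osgin1 with 37.5 CPM in the irradiated BuOE library, 14.5 CPM in irradiated PBS, 19.4 CPM in BuOE and 16.1 CPM in PBS (1.36, 1.21 to 1.52), and Gsta1, a glutathione transferase near the limit of 1 CPM (1.48 against 0.646 CPM, irradiated BuOE first). Hmox1, the heme oxygenase gene, had 2005 CPM in the irradiated BuOE library, 1326 CPM in irradiated PBS, 1261 CPM in BuOE and 1686 CPM in PBS (0.60, 0.58 to 0.62). Nqo1, a quinone reductase gene often read as the marker of NRF2, had 229 CPM in the irradiated BuOE library, 223 CPM in irradiated PBS, 178 CPM in BuOE and 391 CPM in PBS (0.04, -0.01 to 0.09). Hmox1 was highest in irradiated BuOE, while Nqo1 was nearly level between the irradiated libraries and highest in PBS. Without radiation the list had a median of -0.32, with 7 of 29 above 0, and Nqo1 had a ratio of -1.13.

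The measured mRNAs of the mitochondrial genome stood highest in irradiated BuOE, unlike its 2 ribosomal RNAs. All 8 measured mRNAs (13 listed) were at least 2-fold higher, with a median of 1.66, and together the 13 took 2.64% of the reads in irradiated BuOE against 0.864% in irradiated PBS, and 0.725% in BuOE against 0.403% in PBS. The listed mRNAs that were not measured averaged below 1 CPM, whereas the most abundant measured one averaged 4932 CPM. How reads with several matches were counted was not given, so these shares need not reflect the whole mitochondrial genome. mt-Co1 had 10675 CPM in the irradiated BuOE library, 3855 CPM in irradiated PBS, 3255 CPM in BuOE and 1940.2 CPM in PBS (1.47, 1.46 to 1.48). mt-Cytb, of complex III, had 5099 CPM in the irradiated BuOE library, 1491 CPM in irradiated PBS, 1009.8 CPM in BuOE and 579.7 CPM in PBS (1.77, 1.76 to 1.79). The highest ratio was that of mt-Nd2, of complex I, with 1669.9 CPM in the irradiated BuOE library, 380.5 CPM in irradiated PBS, 266 CPM in BuOE and 153 CPM in PBS (2.13, 2.11 to 2.16). The irradiated BuOE library was far above the other 3 for each. The 39 nuclear-encoded respiratory chain subunits did not share this, with 1 gene at least 2-fold higher (Ndufa6, 71.9 against 31.3 CPM; 1.20, 1.09 to 1.31) and a median of -0.02 that was 0.02 with DESeq2 size factors and 0.11 with upper-quartile factors. A share of mitochondrial transcripts also moves with RNA and cell quality; its part in these ratios was not tested. Leaving mitochondrially encoded genes out of totals and scaling gave 539 genes higher and 852 lower, close to the counts with them.

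All 33 cytosolic ribosomal protein genes had a ratio above 0, between 0.23 (Rps2) and 0.91 (Rps27), with a median of 0.52 and none at 2-fold. Rpl4 had 1690.4 CPM in the irradiated BuOE library, 1195 CPM in irradiated PBS, 1067 CPM in BuOE and 1278 CPM in PBS (0.50, 0.48 to 0.52). Rplp0 had 1415 CPM in the irradiated BuOE library, 1066 CPM in irradiated PBS, 991 CPM in BuOE and 1246 CPM in PBS (0.41, 0.39 to 0.43). For both the irradiated BuOE library was the highest. In the pair without radiation 29 of the 33 lay below 0 (median -0.20). Malat1, a nuclear noncoding RNA, had 9655 CPM in the irradiated BuOE library, 4566 CPM in irradiated PBS, 4488 CPM in BuOE and 3900.0 CPM in PBS (1.08, 1.07 to 1.09). Neat1, the RNA scaffold of paraspeckles, had 939 CPM in the irradiated BuOE library, 481 CPM in irradiated PBS, 611 CPM in BuOE and 699 CPM in PBS (0.96, 0.94 to 0.99).

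Immediate early genes, which cells switch on within minutes of a stimulus, had 8 of 30 at least 2-fold higher and none lower, with 21 above 0 and a median of 0.57. Nr4a3, an orphan nuclear receptor gene, had 35 CPM in the irradiated BuOE library, 7.10 CPM in irradiated PBS, 32.2 CPM in BuOE and 11.7 CPM in PBS (2.29, 2.10 to 2.51). Atf3, a stress transcription factor gene, had 124 CPM in the irradiated BuOE library, 48 CPM in irradiated PBS, 75.2 CPM in BuOE and 24.4 CPM in PBS (1.36, 1.28 to 1.45). Ier3 had 822 CPM in irradiated BuOE and 395 CPM in irradiated PBS (1.05, 1.02 to 1.09), whereas Egr2 (-0.73) and Nr4a2 (-0.70) lay below 0, so the list did not move as a block. Of 15 heat shock genes 4 were at least 2-fold higher, led by Hspa1a with 53.9 CPM in the irradiated BuOE library, 12.5 CPM in irradiated PBS, 20.8 CPM in BuOE and 8.48 CPM in PBS (2.10, 1.95 to 2.27) and the small heat shock gene Hspb1 with 219 CPM in the irradiated BuOE library, 75.1 CPM in irradiated PBS, 129.6 CPM in BuOE and 81.2 CPM in PBS (1.55, 1.48 to 1.61). Reads of Hspa1a may be shared with its near-identical copy Hspa1b (1.498). The constitutive chaperone genes Hsp90ab1 (0.05) and Hspa8 (-0.22) were near 0, and the list median of -0.02 was 0.02 with DESeq2 size factors and 0.12 with upper-quartile factors. Among ATF4 and amino acid stress genes, 4 of 26 were at least 2-fold higher and 1 lower, with a median of 0.35. Ddit3, which encodes the stress factor CHOP, had 59.8 CPM in the irradiated BuOE library, 16.8 CPM in irradiated PBS, 20.6 CPM in BuOE and 14.1 CPM in PBS (1.83, 1.69 to 1.97). Psat1, of serine synthesis, had 107 CPM in irradiated BuOE and 153 CPM in irradiated PBS (-0.52, -0.59 to -0.45). Atf4 itself had 396 CPM in irradiated BuOE and 252 CPM in irradiated PBS (0.65, 0.61 to 0.69). The ER chaperone list (21 genes) had none at 2-fold.

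Genes that present antigen on MHC class I were higher in irradiated BuOE. Of 16 genes, 6 passed 2-fold higher and none passed 2-fold lower, with 14 above 0 and a median of 0.88. H2-D1, a classical heavy chain, had 1016 CPM in the irradiated BuOE library, 443 CPM in irradiated PBS, 655 CPM in BuOE and 556 CPM in PBS (1.20, 1.17 to 1.23). H2-K1, the other, had 642 CPM in the irradiated BuOE library, 282 CPM in irradiated PBS, 422 CPM in BuOE and 415 CPM in PBS (1.19, 1.15 to 1.23). B2m, the light chain, had 1053 CPM in the irradiated BuOE library, 574 CPM in irradiated PBS, 645 CPM in BuOE and 613 CPM in PBS (0.87, 0.85 to 0.90). All 3 were highest in irradiated BuOE and lowest in irradiated PBS. The largest ratios were those of H2-Q6 (22.8 against 4.07 CPM; 2.47, 2.22 to 2.76) and H2-Q7 (35.1 against 7.41 CPM; 2.23, 2.04 to 2.45), which are near copies, so that their reads may be shared. Without radiation the list had a median of 0.01, with 8 genes above 0 and 8 below. Of 37 interferon-stimulated genes, 5 were at least 2-fold higher, none lower and 30 above 0 (median 0.25). Isg20, an exonuclease gene, had 40.2 CPM in the irradiated BuOE library, 12.6 CPM in irradiated PBS, 15 CPM in BuOE and 8.04 CPM in PBS (1.67, 1.51 to 1.84). Cxcl10, a chemokine that draws T cells, had 10.7 CPM in the irradiated BuOE library, 3.62 CPM in irradiated PBS, 9.04 CPM in BuOE and 6.40 CPM in PBS (1.54, 1.25 to 1.87), but Zbp1 (-0.49) was below 0, and without radiation 30 of the 37 lay below 0. NF-kB feedback genes were also higher: Nfkbia, the inhibitor that NF-kB induces, had 268 CPM in the irradiated BuOE library, 91.6 CPM in irradiated PBS, 107 CPM in BuOE and 69.2 CPM in PBS (1.55, 1.49 to 1.61). Tnfaip3, another brake, had 98.9 CPM in the irradiated BuOE library, 41.4 CPM in irradiated PBS, 53.9 CPM in BuOE and 40.8 CPM in PBS (1.26, 1.16 to 1.35), in a list with 3 of 19 at least 2-fold higher, none lower and a median of 0.49. The subunit gene Nfkb1 was near 0 (-0.06, and 0.07 with upper-quartile scaling).

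Chemokine genes diverged, with 4 of 20 measured at least 2-fold higher and 3 lower. Ccl5, which draws T cells and monocytes, had 15.5 CPM in the irradiated BuOE library, 3.99 CPM in irradiated PBS, 9.30 CPM in BuOE and 2.32 CPM in PBS (1.94, 1.67 to 2.25). Ccl11, the eosinophil chemokine eotaxin, had 3.00 CPM in the irradiated BuOE library, 14.3 CPM in irradiated PBS, 3.40 CPM in BuOE and 9.09 CPM in PBS (-2.23, -2.63 to -1.90). Cxcl5, a neutrophil chemokine, had 25.1 CPM in irradiated BuOE and 70.0 CPM in irradiated PBS (-1.48, -1.61 to -1.35). Of 16 measured acute phase and innate secretory genes (24 listed), 5 were at least 2-fold higher and 2 lower, among them C3, the central complement component, with 300.2 CPM in the irradiated BuOE library, 137 CPM in irradiated PBS, 210.4 CPM in BuOE and 120.1 CPM in PBS (1.13, 1.08 to 1.18), and C4b with 74.1 CPM in the irradiated BuOE library, 31.4 CPM in irradiated PBS, 47.9 CPM in BuOE and 36.6 CPM in PBS (1.24, 1.13 to 1.35). Among 28 measured senescence-associated secreted factors, 2 were at least 2-fold higher and 3 lower (median -0.22). Igfbp5, which binds insulin-like growth factors, had 810.1 CPM in the irradiated BuOE library, 1714 CPM in irradiated PBS, 2103 CPM in BuOE and 639 CPM in PBS (-1.08, -1.10 to -1.06). Igfbp2 had 24.3 CPM in the irradiated BuOE library, 5.08 CPM in irradiated PBS, 15.8 CPM in BuOE and 4.598 CPM in PBS (2.24, 2.01 to 2.51). Igfbp2 was higher in BuOE in both pairs; Igfbp5 was lower in BuOE after radiation and higher without it.

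In metabolism, glycolysis and hypoxia genes had a ratio above 0 in 26 of 30 cases, 4 of them at 2-fold, with a median of 0.54. Adm, which encodes the vasodilator peptide adrenomedullin, had 211 CPM in the irradiated BuOE library, 63.6 CPM in irradiated PBS, 56.8 CPM in BuOE and 22.5 CPM in PBS (1.73, 1.65 to 1.80). Car9, a carbonic anhydrase gene that hypoxia induces, had 101 CPM in the irradiated BuOE library, 32.2 CPM in irradiated PBS, 56.3 CPM in BuOE and 5.28 CPM in PBS (1.65, 1.55 to 1.75). The glycolytic gene Aldoa had 2989.5 CPM in irradiated BuOE and 1696 CPM in irradiated PBS (0.82, 0.80 to 0.83). The pyruvate kinase gene Pkm had 2586 CPM in irradiated BuOE and 2514 CPM in irradiated PBS (0.04, 0.03 to 0.06). The 4 genes at 2-fold were also 2-fold higher in the pair without radiation. Sterol synthesis and SREBP genes had a ratio below 0 in 24 of 26 cases in each pair, with medians of -0.49 after radiation and -0.53 without, and 1 gene at 2-fold, Idi1 (5.02 against 10.2 CPM; -1.02, -1.34 to -0.73). Adipocyte and lipid storage genes had 5 of 22 measured at least 2-fold higher and none lower, with 13 above 0 and a median of 0.47. Without radiation 11 of the 22 were at least 2-fold lower and 1 lay above 0, with a median of -1.01. Their summed level was 2096 CPM in irradiated BuOE and 2139.7 CPM in irradiated PBS, and 2099.6 CPM in BuOE and 4192 CPM in PBS. Cfd, the adipokine adipsin, had 1.73 CPM in the irradiated BuOE library, 0.337 CPM in irradiated PBS, 0.0330 CPM in BuOE and 29.5 CPM in PBS (2.15, 1.41 to 3.42). Members could pass the filter through a high level in PBS alone, as Cfd did, which favours low ratios in the pair without radiation. Plin2, the coat protein of lipid droplets in most cells, had 552 CPM in the irradiated BuOE library, 441 CPM in irradiated PBS, 475 CPM in BuOE and 504 CPM in PBS (0.32, 0.29 to 0.36).

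Luminal and basal epithelial markers were mostly higher in irradiated BuOE. Among luminal and general epithelial markers 4 of 20 were at least 2-fold higher, none lower and 19 above 0 (median 0.60), and among 14 measured basal markers 6 were at least 2-fold higher, none lower and 12 above 0 (median 0.87). The 2 basal markers below 0 were the desmosomal cadherin gene Dsg3 (-0.74) and the keratin gene Krt6a (-0.62). Urothelial markers were mixed: of 8 measured (10 listed), 1 was at least 2-fold higher (Psca, 1.05) and 2 lower (Upk2, -1.10, and Upk3b, -1.85), with 5 below 0 and a median of -0.19 that was 0.93 among genes with a mean of 10 CPM or more. Krt18, a keratin of simple epithelia, had 1115 CPM in the irradiated BuOE library, 728 CPM in irradiated PBS, 772 CPM in BuOE and 558 CPM in PBS (0.62, 0.59 to 0.64). The keratin genes Krt8 (0.14) and Krt19 (0.17) of the same list were nearer to 0, and Esrp2 (-0.27) was its 1 member below 0. Cldn4, a tight junction gene, had 1438 CPM in the irradiated BuOE library, 602 CPM in irradiated PBS, 847 CPM in BuOE and 506 CPM in PBS (1.26, 1.23 to 1.28). Krt5, a basal keratin, had 278 CPM in the irradiated BuOE library, 115 CPM in irradiated PBS, 388 CPM in BuOE and 262 CPM in PBS (1.28, 1.22 to 1.33). Irradiated PBS was the lowest of the 4 libraries for Krt5, whereas Cldn4 was high in both BuOE libraries. Sprr1a, a cornified envelope precursor that is also known from nerve injury, had the highest ratio among named genes that averaged 10 CPM or more, with 907 CPM in the irradiated BuOE library, 111 CPM in irradiated PBS, 190.4 CPM in BuOE and 36.2 CPM in PBS (3.02, 2.98 to 3.07), 8.14-fold between the irradiated libraries. The epithelial sums given above count Krt18, Cldn4, Krt5, Lamb3 and Perp among their members. A shared direction of these genes and the sums is therefore partly built in. The part of the epithelial sums in other ratios was not tested.

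Secretory genes of the prostate and seminal vesicle were mostly higher, with 2 large exceptions. Of 16 measured (20 listed), 10 were at least 2-fold higher and 2 lower, with a median of 1.45. Pbsn, the androgen-driven probasin, had 50.7 CPM in the irradiated BuOE library, 9.46 CPM in irradiated PBS, 7.26 CPM in BuOE and 2.69 CPM in PBS (2.41, 2.25 to 2.60). Msmb, which encodes microseminoprotein, had 44.5 CPM in the irradiated BuOE library, 9.09 CPM in irradiated PBS, 7.52 CPM in BuOE and 2.04 CPM in PBS (2.28, 2.11 to 2.47). The seminal vesicle gene Svs5 had 467 CPM in the irradiated BuOE library, 172 CPM in irradiated PBS, 274 CPM in BuOE and 70.9 CPM in PBS (1.44, 1.397 to 1.49). All 3 were higher in BuOE in each pair. Sbp, which encodes the spermine binding protein of prostatic fluid, went the other way with 12.8 CPM in the irradiated BuOE library, 439 CPM in irradiated PBS, 428 CPM in BuOE and 757 CPM in PBS (-5.10, -5.27 to -4.94), 34.4-fold lower in irradiated BuOE, and the protease inhibitor gene Spink1 had 2.63 CPM in the irradiated BuOE library, 56.1 CPM in irradiated PBS, 51.3 CPM in BuOE and 18.9 CPM in PBS (-4.38, -4.80 to -4.05). For Sbp the irradiated BuOE library was far below the other 3. Zbtb16, a target of the glucocorticoid receptor, had 37 CPM in the irradiated BuOE library, 8.84 CPM in irradiated PBS, 12 CPM in BuOE and 7.19 CPM in PBS (2.06, 1.88 to 2.25).

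Neuronal genes were lower in irradiated BuOE than in irradiated PBS, although the unirradiated BuOE library held the most. Of 37 measured, 27 were at least 2-fold lower, 1 higher and 2 above 0, with a median of -1.99; without radiation 33 were at least 2-fold higher in BuOE, with a median of 4.89. Prph, a filament of peripheral neurons, had 2.43 CPM in the irradiated BuOE library, 20.6 CPM in irradiated PBS, 81.7 CPM in BuOE and 0.783 CPM in PBS (-3.05, -3.49 to -2.70). Vip, a neuropeptide of nerves in the prostate, had 5.97 CPM in the irradiated BuOE library, 33.2 CPM in irradiated PBS, 199 CPM in BuOE and 2.62 CPM in PBS (-2.46, -2.74 to -2.23). Tubb3, the neuronal tubulin, had 9.18 CPM in the irradiated BuOE library, 36.7 CPM in irradiated PBS, 122 CPM in BuOE and 17.2 CPM in PBS (-1.99, -2.21 to -1.80). In each, BuOE was the highest library and irradiated BuOE lay below irradiated PBS. The neuropeptide Y gene Npy, also made by sympathetic nerves, was the exception at 2-fold higher, with 141 CPM in the irradiated BuOE library, 57.8 CPM in irradiated PBS, 126 CPM in BuOE and 14.8 CPM in PBS (1.29, 1.21 to 1.37). Schwann cell and glial genes differed less, with 3 of 17 at least 2-fold lower (median -0.25), and Ngfr, the neurotrophin receptor, had 49.7 CPM in the irradiated BuOE library, 76.5 CPM in irradiated PBS, 179 CPM in BuOE and 25.2 CPM in PBS (-0.62, -0.72 to -0.52). Without radiation 11 of the 17 glial genes were at least 2-fold higher in BuOE and none lower, with a median of 2.31. Neuronal genes summed to 414, 609, 1670.4 and 333 CPM in irradiated BuOE, irradiated PBS, BuOE and PBS. Among the 15 lowest named ratios of genes with at least 10 CPM were, besides Prph, Vip and Nos1, the vesicle genes Rab3c (-3.40), Sv2c (-2.63) and Syt4 (-2.40) and the growth cone gene Gap43 (-2.68). Slc7a14 (-2.94), Unc5c (-2.60), Vat1l (-2.46) and Add2 (-2.33), which are not on the list, were among them too. The 10 CPM mean runs over all 4 libraries, and these genes, all but Unc5c, were highest in unirradiated BuOE. Some passed the limit only through that library. Rab3c had 1.11 CPM in irradiated BuOE, 12.4 CPM in irradiated PBS and 27.0 CPM in BuOE. Slc7a14 had 1.15, 9.32 and 30.8 CPM in the same order.

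Of the remaining cell types, endothelial markers had a median of -0.40 with 1 of 20 at least 2-fold lower (Cldn5, -1.05), and Cdh5, the endothelial cadherin, had 245 CPM in irradiated BuOE and 237 CPM in irradiated PBS (0.05, 0.00 to 0.10). Without radiation 7 of the 20 endothelial markers were at least 2-fold higher in BuOE and 1 lower, with a median of 0.88. Pericyte markers held 3 genes 2-fold higher and 3 lower of 13, with Pdgfrb, the receptor that recruits pericytes, at 198 CPM in the irradiated BuOE library, 442 CPM in irradiated PBS, 309.8 CPM in BuOE and 362 CPM in PBS (-1.16, -1.21 to -1.11). In the pair without radiation 9 of the 13 were at least 2-fold higher in BuOE and none lower, with a median of 2.00. Macrophage markers were above 0 in 17 of 19 cases, with none at 2-fold higher and 1 at 2-fold lower (Cd163, -1.14), and Lyz2 (lysozyme) had 244 CPM in irradiated BuOE and 178 CPM in irradiated PBS (0.45, 0.40 to 0.51). Muscle regulators were lower in both BuOE libraries. Myod1, the master factor of skeletal muscle, had 0.329 CPM in the irradiated BuOE library, 5.22 CPM in irradiated PBS, 0.396 CPM in BuOE and 4.19 CPM in PBS (-3.74, -5.22 to -2.98), and Myog, which follows it, had 0 reads in both BuOE libraries, which allows up to 0.123 CPM in irradiated BuOE and 0.0990 CPM in BuOE, against 3.37 CPM in irradiated PBS and 1.16 CPM in PBS. The muscle list had 6 of 12 measured genes at least 2-fold lower and 1 higher; its median of -0.99 turned to 0.77 among genes with a mean of 10 CPM or more, which leaves out these regulators. Imprinted growth genes had 5 of 14 at least 2-fold lower and 1 higher (median -0.84), with the noncoding RNA H19 at 14.7 CPM in the irradiated BuOE library, 44.7 CPM in irradiated PBS, 8.51 CPM in BuOE and 22.2 CPM in PBS (-1.60, -1.77 to -1.43) and Peg3 at 21.1 CPM in the irradiated BuOE library, 66.1 CPM in irradiated PBS, 29.9 CPM in BuOE and 46.9 CPM in PBS (-1.65, -1.79 to -1.51). Globin genes stood at low levels that varied between libraries, and Hbb-bs had 21.8 CPM in the irradiated BuOE library, 3.71 CPM in irradiated PBS, 8.81 CPM in BuOE and 49.5 CPM in PBS (2.53, 2.28 to 2.84), a value uncertain because of its near-identical paralog.

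The pair with radiation and the pair without it share no library, so the label BuOE can be followed in each. Of the 548 genes at least 2-fold higher after radiation, 226 (41.2%) were also 2-fold higher without it, which is 18.0% of the 1253 genes higher there. Of the 851 lower genes, 316 (37.1%) were also lower without radiation, 52.1% of the 607 lower there. Of the 548 higher genes 16 (2.92%) were 2-fold lower without radiation, where 4.23% of all genes were. Of the 851 lower genes 215 (25.3%) were 2-fold higher without radiation, where 8.72% of all genes were. Genes could pass the filter through a high level in unirradiated BuOE alone, which favours this combination. With a mean of 1 CPM over the 2 irradiated libraries 584 genes were higher and 800 lower. The overlaps were not recounted with that filter. The sign of the ratio was shared between the pairs for 67.3% of genes. Spearman's correlation of the 2 ratios across the 14365 genes was 0.41 and Pearson's 0.14; across the 9870 genes that averaged 10 CPM or more they were 0.56 and 0.43. Genes are not independent replicates, so this describes the 4 libraries only.

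**Figure D5:**
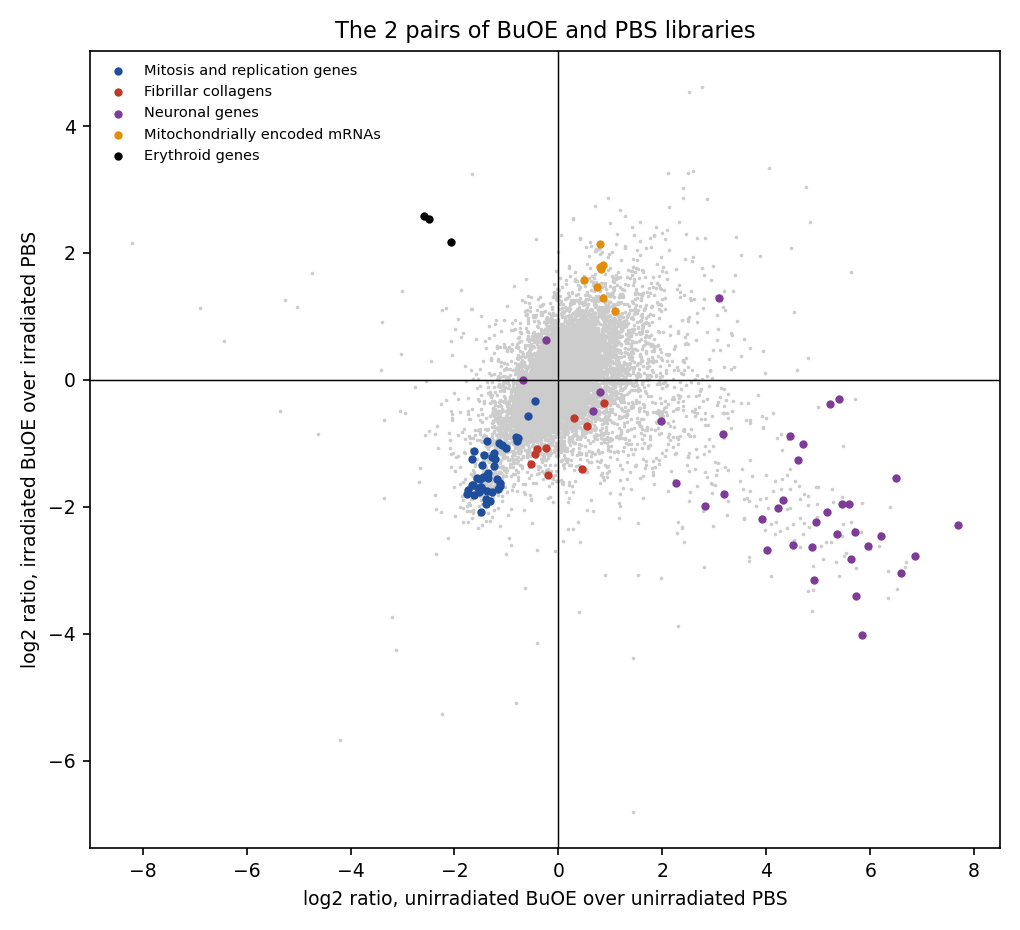
Log2 ratio of irradiated BuOE over irradiated PBS (vertical axis) against that of unirradiated BuOE over unirradiated PBS (horizontal axis), 1 grey point for each gene and members of 5 lists in colour. Mitosis and replication genes lie in the lower left, mitochondrially encoded mRNAs in the upper right, neuronal genes mostly in the lower right, erythroid genes in the upper left, and fibrillar collagens below 0 on the vertical axis and on both sides of 0 on the horizontal one.

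Among genes of at least 10 CPM, the highest in both pairs together were Sprr1a, Msmb, Mmp7, Igfbp2, Depp1, Cdh23, Tfap2c and Ero1l. Mmp7, a metalloproteinase of secretory epithelium, had 46.2 CPM in the irradiated BuOE library, 9.54 CPM in irradiated PBS, 45.9 CPM in BuOE and 12.7 CPM in PBS (2.27, 2.10 to 2.45). Depp1, a target of FOXO factors, had 69.8 CPM in the irradiated BuOE library, 14.7 CPM in irradiated PBS, 16.1 CPM in BuOE and 2.21 CPM in PBS (2.24, 2.10 to 2.39). Tfap2c, an epithelial transcription factor gene, had 22.9 CPM in the irradiated BuOE library, 6.62 CPM in irradiated PBS, 14.3 CPM in BuOE and 3.51 CPM in PBS (1.78, 1.57 to 2.01). In each pair all 3 were higher in the BuOE library, which the rule that picked them requires. The lowest in both pairs were Hist1h3g, Hist1h1a, Hist1h2bh, Pclaf, Tk1, Tnfsf15, E2f7 and Trip13. Apart from the cytokine gene Tnfsf15, with 5.19 CPM in the irradiated BuOE library, 19 CPM in irradiated PBS, 2.70 CPM in BuOE and 28.5 CPM in PBS (-1.86, -2.16 to -1.60), these are histone genes or genes of DNA synthesis, the E2F network and mitotic checkpoints. Tk1, the thymidine kinase of S phase, had 8.89 CPM in the irradiated BuOE library, 35.4 CPM in irradiated PBS, 11.5 CPM in BuOE and 39.4 CPM in PBS (-1.99, -2.21 to -1.79). E2f7, a repressor in that network, had 7.49 CPM in the irradiated BuOE library, 26.7 CPM in irradiated PBS, 9.50 CPM in BuOE and 34.5 CPM in PBS (-1.83, -2.07 to -1.60). Both genes were lower in BuOE in each pair, which the rule that picked them requires.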

How the data were processed

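The values used are read counts per gene, deposited by the authors as 1 table with a column for each of 4 bulk RNA-seq libraries of mouse prostate cells; no sample column was left unused. Groups were taken from the treatment field of the labels. The submitters' processing notes name featureCounts, Trim Galore 0.6.4, FastQC, Salmon 1.4.0 and edgeR 4.2.2 without their role, and the build GRCm39. The handling of strand and of reads with several matches was not given in the sources used; near-identical, overlapping and antisense genes are therefore uncertain. Symbols and biotypes came from GENCODE M21 by Ensembl ID; that annotation is on GRCm38, and no gene coordinates were taken from it. Of 56748 IDs 4623 had no symbol, and 111 of these were kept. They held 0.682% of the reads in irradiated BuOE, 1.03% in irradiated PBS, 1.28% in BuOE and 1.18% in PBS, and stayed in the totals.

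Counts were scaled with TMM (edgeR 4.0.16, R 4.3.3; factors 0.972 in irradiated BuOE, 0.992 in irradiated PBS, 1.05 in BuOE and 0.987 in PBS). Kept were genes that averaged 1 CPM or more over the 4 libraries, and a gene near that limit can pass through 1 library alone. The same holds for the mean of 10 CPM. Log2 ratios used a prior count of 2, and called means 2-fold. With 1 library per group no test was possible, and no source says whether a library is 1 animal or a pool. Counting intervals were tested on simulated data. The fold given for single genes is the ratio of the scaled CPM. Promoter sequences are from RefSeq tables on GRCm38.p6.

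The members and the gene lists (64, plus 2 added after values were seen) were chosen with earlier results of these data known. Named genes were the 15 highest and 15 lowest ratios among genes with a mean of 10 CPM or more (gene models, pseudogenes and small RNA genes left out), the 8 highest and 8 lowest in both pairs, the 3 most expressed and the 2 highest and 2 lowest members of each list, the 12 genes with the most reads, and all members of the collagen, superoxide and peroxide, superoxide and nitric oxide producing, NRF2, mitochondrial mRNA and p53 lists. Ccnb2, Cdk1, Dcn, Hspa1b, Myod1, Pdgfra, Plk1, Spp1, Thy1, Tubb3 and the genes of the closing observations were added after their values were seen. A few genes picked this way were left out of the text. Alternatives changed 1 choice at a time: the scaling (DESeq2 1.42.0 size factors, library size alone, upper-quartile factors), the filter, the prior count, protein-coding genes only, and mitochondrially encoded genes left out, 9 in all, plus 1 added after the data were seen (a mean of 1 CPM over the 2 irradiated libraries).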

Additional observations from a re-analysis of the deposited data

Results flagged for a closer look

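Lists whose members moved one way in the irradiated pair and the opposite way in the unirradiated pair were marked, and 2 lists stood out by their medians. Neuronal genes had a median ratio of -1.99 (BuOE and radiation over PBS and radiation), against 4.89 for BuOE over PBS. Erythroid genes, of which 3 of 8 were measured, had a median of 2.53 after radiation, against -2.48 without. Other lists changed side too, with smaller medians, given here after radiation and then without. They were -0.25 and 2.31 for Schwann cell and glial genes and -0.40 and 0.88 for endothelial markers. For adipocyte genes they were 0.47 and -1.01, for ribosomal protein genes 0.52 and -0.20, and for interferon-stimulated genes 0.25 and -0.35. With 1 library per group the difference between the pairs was not tested. A gene could also pass the filter through a high level in 1 library alone, which favours large ratios in the pair that holds that library. Hba-a1 had 3.79 CPM in the irradiated BuOE library, 0.786 CPM in irradiated PBS, 2.18 CPM in BuOE and 9.30 CPM in PBS and Hba-a2 1.85 CPM in the irradiated BuOE library, 0.253 CPM in irradiated PBS, 0.594 CPM in BuOE and 3.92 CPM in PBS, and both are near copies whose reads may be shared.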

How the results depend on the processing

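No paired analysis was possible because each group has 1 library, and for the same reason no replicate could be left out. With no filter beyond 1 count in the 2 libraries, 2343 genes were at least 2-fold higher and 2241 lower, against 548 and 851 as reported, and with a mean of 10 CPM or more 245 were higher and 347 lower; these settings test more or fewer genes of low count. In the other 8 alternatives both counts stayed within 1.5 times the reported ones (457 to 767 higher, 670 to 883 lower). The median ratio over all genes was -0.07 as reported, -0.03 with DESeq2 size factors, -0.10 by library size alone and 0.06 with upper-quartile factors. Of 494 named genes 31 changed sign in at least 1 alternative, none of them called 2-fold. Of 65 list medians 14 changed sign, and the largest of these was that of the skeletal muscle list (-0.99, and 0.77 at 10 CPM or more). The upper-quartile medians were 0.11 for the nuclear-encoded respiratory chain, 0.12 for ER chaperones and 0.12 for heat shock genes. Counting error was wide for genes of few CPM such as Cdkn2a, whose interval of -2.01 to -0.48 spans the 2-fold limit. The spread between cultures was not measured and limits every value.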

Other observations

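The genes of this section were chosen after their values were seen. Clock and clock output genes were higher in irradiated BuOE: 4 of 18 were at least 2-fold higher, none lower and 16 above 0, with a median of 0.72 after radiation and 0.67 without. Nr1d1, the REV-ERB alpha repressor, had 233 CPM in the irradiated BuOE library, 57.3 CPM in irradiated PBS, 82.5 CPM in BuOE and 45.9 CPM in PBS (2.02, 1.95 to 2.10), and its level in irradiated BuOE was far above the other 3 libraries. Dbp, a clock output factor, had 31.4 CPM in the irradiated BuOE library, 9.24 CPM in irradiated PBS, 13 CPM in BuOE and 6.47 CPM in PBS (1.76, 1.58 to 1.96). Per1, which glucocorticoids and serum also induce, had 117 CPM in the irradiated BuOE library, 40.9 CPM in irradiated PBS, 52.9 CPM in BuOE and 30.1 CPM in PBS (1.51, 1.42 to 1.60). The activator genes Arntl and Clock had ratios of -0.08 and -0.08, which turned to 0.06 and 0.06 with upper-quartile scaling. The hour at which cells were collected is not in the labels, and its part was not tested.

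Ribosomal RNA of the mitochondrion went against the mitochondrial mRNAs after radiation. mt-Rnr1 had 29.4 CPM in the irradiated BuOE library, 85.3 CPM in irradiated PBS, 87.2 CPM in BuOE and 45.7 CPM in PBS (-1.53, -1.65 to -1.42). mt-Rnr2 had 42.6 CPM in the irradiated BuOE library, 101 CPM in irradiated PBS, 114 CPM in BuOE and 51.8 CPM in PBS (-1.24, -1.34 to -1.14). Both were lowest in irradiated BuOE, while without radiation both were higher in BuOE, as the mRNAs were. Counts of Lars2, the mitochondrial leucyl-tRNA synthetase gene, went the same way as the 2 ribosomal RNAs in each pair. It had 108 CPM in the irradiated BuOE library, 314 CPM in irradiated PBS, 706 CPM in BuOE and 388 CPM in PBS (-1.54, -1.60 to -1.48). Whether reads of ribosomal RNA were counted under Lars2 was not tested, so its values are not separate evidence on a mitochondrial gene. Ribosomal RNA in such libraries also depends on how it was removed or avoided, a step that the labels do not describe and whose part was not tested.

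Growth factor genes held further differences. Pgf, the placental growth factor of vessels, had 116 CPM in the irradiated BuOE library, 35.1 CPM in irradiated PBS, 37.5 CPM in BuOE and 9.37 CPM in PBS (1.72, 1.62 to 1.82). Wif1, a secreted Wnt inhibitor, had 15.9 CPM in the irradiated BuOE library, 1.88 CPM in irradiated PBS, 8.25 CPM in BuOE and 0.238 CPM in PBS (3.03, 2.70 to 3.47). Both were higher in BuOE in each pair. Bmp5 had 0.700 CPM in the irradiated BuOE library, 6.43 CPM in irradiated PBS, 2.47 CPM in BuOE and 0.817 CPM in PBS (-3.08, -4.00 to -2.49). The BMP antagonist gene Grem1 had 75.2 CPM in the irradiated BuOE library, 195 CPM in irradiated PBS, 51.8 CPM in BuOE and 217 CPM in PBS (-1.37, -1.45 to -1.30). Grem1 was low in the 2 BuOE libraries, whereas Bmp5 was high only in irradiated PBS.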
